A study of Mus musculus with 16 samples.

Results

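The guanylate binding proteins (GBPs) measured here are the products of 8 mouse genes, Gbp2, Gbp3, Gbp4, Gbp5, Gbp6, Gbp7, Gbp8 and Gbp9. They were chosen by gene symbol, and each symbol matched 1 of the 22287 genes in the count table. The 16 RNA-seq libraries came from bone marrow derived macrophages (BMDMs) of C57BL/6J mice 8 weeks of age, cultured for 7 days. The growth factor was GM-CSF (GM) or M-CSF (M), and the dish was treated for tissue culture (TC) or left without that treatment (noTC). Cells were then kept at steady state or challenged with lipopolysaccharide (LPS), a component of the outer membrane of Gram-negative bacteria, for 3 h. These factors gave 8 groups of 2 libraries. They are GM-TC and GM-noTC with GM-CSF, M-TC and M-noTC with M-CSF, and each of these with LPS, as in GM-TC-LPS. All groups share the strain and the length of culture, and no group carries a genetic change.

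GBPs are large GTPases of the dynamin superfamily whose genes are switched on by interferons through STAT and IRF transcription factors. In macrophages they assemble on the vacuoles and the surface of intracellular bacteria and parasites, together with the immunity-related GTPases (IRGs). They also help to expose bacterial LPS to caspase-11, the product of Casp4 in the mouse, which cleaves gasdermin D and leads to pyroptosis. Some family members, Gbp2 and Gbp5 among them, end in a motif that receives a lipid anchor by prenylation.

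The 8 genes lie in 2 clusters in the GENCODE annotation. Gbp5, Gbp7, Gbp3 and Gbp2 lie in this order on the plus strand of chromosome 3, with Gbp2b between Gbp3 and Gbp2. Gbp8, Gbp9, Gbp4 and Gbp6 lie in this order on the minus strand of chromosome 5, with Gbp10 between Gbp4 and Gbp6. RefSeq promoter windows of assembly GRCm38.p6, from 250 bases before to 50 bases after a transcription start, were held for the members on chromosome 3. Their identifiers in the count table are ENSMUSG00000028270 (Gbp2), ENSMUSG00000028268 (Gbp3), ENSMUSG00000105504 (Gbp5) and ENSMUSG00000040253 (Gbp7), beside ENSMUSG00000079363 (Gbp4), ENSMUSG00000104713 (Gbp6), ENSMUSG00000034438 (Gbp8) and ENSMUSG00000029298 (Gbp9). No window was held for the members on chromosome 5, so their promoters were not searched. The 4 members with a window also had the highest CPM upon LPS challenge. Capitals mark matches to 3 binding motifs of interferon and LPS signaling, searched on both strands. The motifs were the interferon-stimulated response element (ISRE, GAAANNGAAA, bound by IRF and STAT complexes), the gamma-activated site (GAS, TTCNNNGAA) and the NF-kB site.
Gbp2 promoter, chr3:142620413-142620712, plus strand: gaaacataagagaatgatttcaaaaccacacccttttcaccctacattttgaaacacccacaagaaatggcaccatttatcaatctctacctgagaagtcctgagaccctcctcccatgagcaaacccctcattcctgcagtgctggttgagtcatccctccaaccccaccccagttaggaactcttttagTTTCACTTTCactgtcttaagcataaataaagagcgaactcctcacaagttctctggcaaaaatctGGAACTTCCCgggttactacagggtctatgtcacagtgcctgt
Gbp3 promoter, chr3:142559794-142560093, plus strand: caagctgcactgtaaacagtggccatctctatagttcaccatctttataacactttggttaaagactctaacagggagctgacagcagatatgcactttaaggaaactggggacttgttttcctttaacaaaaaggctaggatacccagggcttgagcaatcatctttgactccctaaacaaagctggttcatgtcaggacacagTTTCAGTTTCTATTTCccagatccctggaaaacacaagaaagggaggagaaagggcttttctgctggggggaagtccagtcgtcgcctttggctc
Gbp5 promoter, chr3:142496684-142496983, plus strand: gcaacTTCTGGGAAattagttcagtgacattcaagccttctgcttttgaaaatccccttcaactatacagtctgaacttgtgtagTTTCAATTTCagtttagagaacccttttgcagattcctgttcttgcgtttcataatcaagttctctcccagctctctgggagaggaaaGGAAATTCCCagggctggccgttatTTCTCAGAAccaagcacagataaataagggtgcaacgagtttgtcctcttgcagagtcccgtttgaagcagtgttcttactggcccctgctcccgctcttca
Gbp7 promoter, chr3:142530086-142530385, plus strand: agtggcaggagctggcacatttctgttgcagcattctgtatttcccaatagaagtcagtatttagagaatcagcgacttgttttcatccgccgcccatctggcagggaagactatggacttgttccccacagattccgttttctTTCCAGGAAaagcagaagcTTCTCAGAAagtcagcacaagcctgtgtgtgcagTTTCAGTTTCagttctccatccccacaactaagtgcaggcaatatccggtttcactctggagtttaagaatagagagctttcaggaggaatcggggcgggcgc
Each of these 4 windows held an ISRE, at positions -59 to -50 from the start in Gbp2, -165 to -156 in Gbp5 and -53 to -44 in Gbp7. In Gbp3 a pair of overlapping matches began at -45 and -39, and a second Gbp3 window, for a start further downstream, held none of the 3 motifs. GAS matches stood at -245 and -52 in Gbp5 and at -106 and -87 in Gbp7, and NF-kB matches at 8 in Gbp2 and -77 in Gbp5. Over all 32851 windows of the same length, 3.44% held an ISRE, 8.3% a GAS and 8.46% an NF-kB match. A match describes the letters in the window and is not evidence of binding.

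The ends of the coding sequences, from the longest protein-coding transcript of each gene in GENCODE, are shown for the members known for their lipid anchor, with Gbp3 beside them. The last 4 codons before the stop are in capitals.
Gbp2 coding end: aacaaatcgtctgggaagTGCACTATACTC
Gbp5 coding end: cgtagacatcatcatgacTGTGTTATAAGC
Gbp3 coding end: gggctgaaattcctcggcTCACTAAGTAGT
In Gbp2 and Gbp5 the first of these 4 codons encodes cysteine, the residue that prenylation modifies. The other 6 members had no cysteine codon at this place.

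Total counts per library ranged from 17527806 to 31458368, at which 3 counts equal 0.0954 to 0.171 counts per 1000000 counts of the library (CPM). Libraries were scaled with TMM factors of 1.11 to 1.39 for untreated and 0.778 to 0.842 for LPS libraries, and CPM below are TMM scaled. All 8 members were among the 12514 genes tested. Markers of macrophages, such as Lyz2, Cd68 and Csf1r, were high in every library, with a sum over 7 markers of 19984 to 46561 CPM. A list of 5 heart muscle markers summed to 18.4 and 38.9 CPM in the GM-TC libraries and 30.9 and 52.9 CPM in the M-TC libraries, and to at most 0.237 CPM in the other 12. The 2 GM-TC libraries also differed more from each other than other replicates did, with a chi-square per degree of freedom of 12.5 over genes against 1.91 to 5.13. The study calls the 2 libraries of a group biological replicates. The labels do not say whether replicates came from separate mice. The p-values therefore measure the spread between these libraries, which may leave out that between mice.

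**Figure D1:**
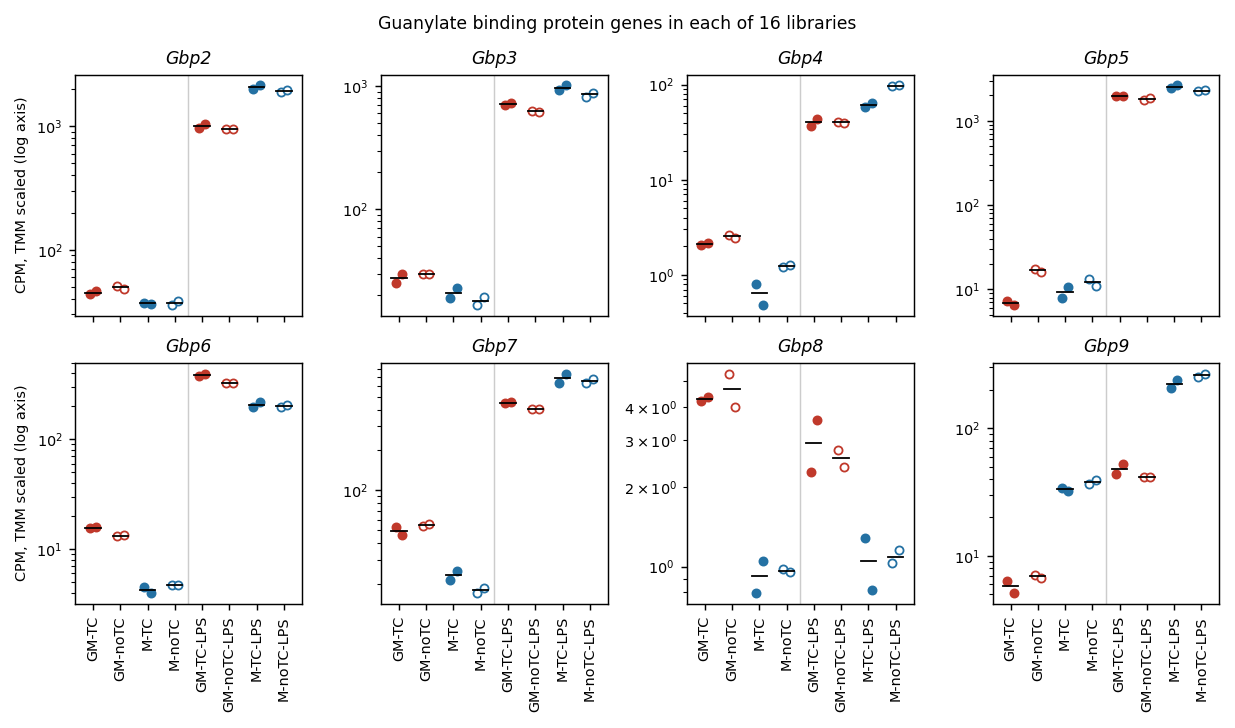
CPM of each guanylate binding protein gene in each of the 16 libraries, on a log axis, with red for GM, blue for M, filled circles for TC, open circles for noTC and a bar at the mean of 2. In 7 genes every LPS library stands above every library of the same culture at steady state, and Gbp8 stays between 0.798 and 5.34 CPM.

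All 8 genes were detected in all 16 libraries, at steady state levels that differed widely between them. Levels of different genes were compared as CPM per kilobase of exon. Gbp2 was first in each of the 8 groups, with 17.8 ± 0.647 CPM per kb for GM-TC and 19.7 ± 0.636 for GM-noTC, and 14.7 ± 0.133 for M-TC and 14.7 ± 0.609 for M-noTC (SD, n = 2). In GM-TC the order was Gbp2, Gbp7, Gbp3, Gbp6, Gbp8, Gbp9, Gbp5 and Gbp4, and Gbp7 and Gbp3, Gbp8 and Gbp9, and Gbp9 and Gbp5 overlapped between libraries. In M-TC Gbp9 stood second with 6.43 ± 0.28 CPM per kb (SD, n = 2), overlapping with Gbp3 at 6.37 ± 0.833. The M-CSF cultures thus differed from the GM-CSF cultures in the place of Gbp9, which made up 18.9% (M-TC) and 21.7% (M-noTC) of the summed level per kb, against 2.69% (GM-TC) and 2.9% (GM-noTC). Gbp7 had the reverse pattern, with 21.4% and 21.2% on TC and noTC dishes with GM-CSF against 12% and 9.4% with M-CSF.

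Upon LPS challenge the order per kb began with Gbp2, Gbp5, Gbp3 and Gbp7 in all 4 groups and ended with Gbp4 and Gbp8, and no neighbours overlapped. The sum over the family rose from between 32.8 and 47 CPM per kb at steady state to between 979.7 and 1780 CPM per kb. Gbp5 made the largest gain in share, from 2.53% to 27.4% in GM-TC and from 4.09% to 22.3% in M-TC. The place of the leading gene depends on the length used, since exons of all transcripts add up to 2.52 kb in Gbp2, 6.64 kb in Gbp5 and 5.61 kb in Gbp7. With the longest coding length, Gbp7 came first in the GM-CSF cultures at steady state and Gbp5 in all 4 LPS groups, which left Gbp2 first in 2 groups.

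**Figure D2:**
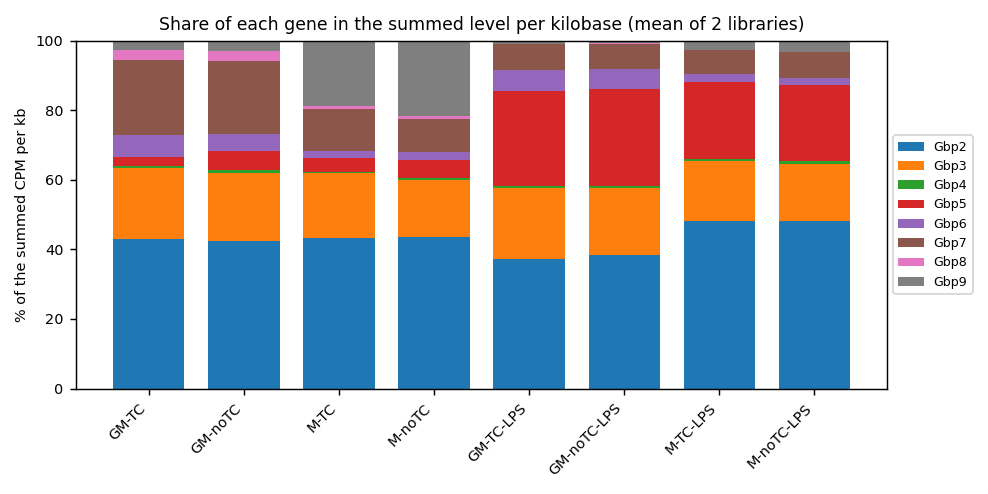
Share of each gene in the summed CPM per kilobase of exon in each group, in percent, as the mean of 2 libraries. Gbp5 takes 21.7% to 28% of the sum in the LPS groups and 2.53% to 5.46% at steady state, and Gbp9 is widest in M-TC and M-noTC.

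The comparison of LPS-treated with untreated cells asks how each culture responded to the bacterial stimulus. In each of the 4 cultures, 7 of the 8 members rose past a fold change of 2 with an adjusted p under 0.05 (edgeR quasi-likelihood test, Benjamini-Hochberg adjustment over all genes tested). Over all genes tested, 13.4% rose past these limits with GM-CSF on TC and 13.1% on noTC dishes, and 17.3% and 15.9% with M-CSF. The median log2 fold change of the 8 members was 4.36 on TC and 4.12 on noTC dishes with GM-CSF and 5.58 and 5.49 with M-CSF, against -0.05 to -0.01 over all genes tested. In bulk RNA, a change in RNA per cell and a change in the number of cells that carry it cannot be told apart.

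Gbp5, which promotes inflammasome assembly and carries a prenylation motif, rose most of the 8 in every culture. It had 7.32 and 6.6 CPM in GM-TC libraries, 17.4 and 16.2 in GM-noTC libraries, 7.9 and 10.7 in M-TC libraries and 13.1 and 11.1 in M-noTC libraries. After LPS it had 1955 and 1944 CPM in GM-TC-LPS libraries, 1784 and 1874 in GM-noTC-LPS libraries, 2465 and 2622 in M-TC-LPS libraries and 2257 and 2314 in M-noTC-LPS libraries. All LPS libraries were above all libraries at steady state, and no 2 of the 8 groups that neighbour each other in level overlapped. It rose 281-fold on TC dishes (log2 8.13, standard error 0.1) and 109-fold on noTC dishes (6.77, 0.089) with GM-CSF, and 273-fold (8.09, 0.096) and 191-fold (7.58, 0.092) with M-CSF, with adjusted p of 3.2e-24 or less. It ranked 46, 63, 59 and 39 among the 12514 genes in these 4 cultures by log2 fold change.

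Gbp2, which also carries a prenylation motif and gathers on the vacuoles of pathogens, rose from a higher start. It had 43.7 and 46 CPM in GM-TC libraries, 50.7 and 48.5 in GM-noTC libraries, 37.2 and 36.7 in M-TC libraries and 36 and 38.2 in M-noTC libraries. Upon LPS challenge it had 965 and 1045 CPM in GM-TC-LPS libraries, 946 and 949 in GM-noTC-LPS libraries, 2020.4 and 2139 in M-TC-LPS libraries and 1888 and 1957 in M-noTC-LPS libraries. All 4 M-CSF libraries after LPS stood above all 4 GM-CSF ones, whereas at steady state they stood below in these TMM scaled values. The log2 fold change was 4.48 (standard error 0.061) on TC and 4.26 (0.06) on noTC dishes with GM-CSF, and 5.81 (0.064) and 5.69 (0.063) with M-CSF.

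Gbp3 and Gbp7, which lie between Gbp5 and Gbp2 on chromosome 3, followed the same direction. Gbp3 had 16.8 to 29.8 CPM at steady state, with 697 and 728 CPM in GM-TC-LPS libraries, 630.3 and 619 in GM-noTC-LPS libraries, 931 and 1013 in M-TC-LPS libraries and 824 and 888 in M-noTC-LPS libraries. Gbp7 had 53.3 and 46.4 CPM in GM-TC libraries, 54.3 and 55.9 in GM-noTC libraries, 21.1 and 24.9 in M-TC libraries and 17.1 and 18.6 in M-noTC libraries. After LPS, Gbp7 had 446 and 455 CPM in GM-TC-LPS libraries, 407 and 404 in GM-noTC-LPS libraries, 632 and 745 in M-TC-LPS libraries and 634 and 683 in M-noTC-LPS libraries. Both genes were thus lower in M-CSF than in GM-CSF libraries before LPS and higher after it. Gbp7 rose 9.07-fold on TC and 7.36-fold on noTC dishes with GM-CSF, and 29.9-fold and 36.7-fold with M-CSF.

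On chromosome 5, Gbp4 was the member with the fewest reads per kb at steady state, with 0.486 to 2.65 CPM, or as few as 13 counts in a library. It had 37.2 and 43.1 CPM in GM-TC-LPS libraries, 40.7 and 39.4 in GM-noTC-LPS libraries, 57.6 and 64.7 in M-TC-LPS libraries and 96.2 and 98.1 in M-noTC-LPS libraries. These levels made fold changes of 18.9 and 15.7 with GM-CSF and of 95.1 and 77.4 with M-CSF, on TC and noTC dishes. Gbp6 had 15.5 and 15.8 CPM in GM-TC libraries, 13 and 13.3 in GM-noTC libraries, 4.47 and 4 in M-TC libraries and 4.68 and 4.67 in M-noTC libraries. After LPS it had 378 and 398 CPM in GM-TC-LPS libraries, 328 and 325 in GM-noTC-LPS libraries, 197 and 217 in M-TC-LPS libraries and 199 and 205 in M-noTC-LPS libraries. Gbp6 was thus the only member with a rise past these limits whose GM-CSF libraries stayed above the M-CSF ones after LPS.

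Gbp9 had 6.36 and 5.15 CPM in GM-TC libraries, 7.13 and 6.76 in GM-noTC libraries, 34.3 and 32.2 in M-TC libraries and 36.5 and 39.5 in M-noTC libraries. After LPS it had 43.7 and 52.2 CPM in GM-TC-LPS libraries, 41.4 in both GM-noTC-LPS libraries, 207 and 240.4 in M-TC-LPS libraries and 250.4 and 269 in M-noTC-LPS libraries. The M-CSF libraries were above the GM-CSF ones on both dishes in both states. Its log2 fold changes upon LPS challenge, 3.07 and 2.58 with GM-CSF and 2.75 and 2.77 with M-CSF on TC and noTC dishes, had standard errors of 0.082 to 0.12.

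Gbp8 was the exception in the family. It had 4.19 and 4.35 CPM in GM-TC libraries, 5.34 and 3.99 in GM-noTC libraries, 2.28 and 3.58 in GM-TC-LPS libraries and 2.75 and 2.37 in GM-noTC-LPS libraries. In the M-CSF cultures it had 0.798 and 1.05 CPM in M-TC libraries, 0.977 and 0.952 in M-noTC libraries, 1.28 and 0.814 in M-TC-LPS libraries and 1.03 and 1.15 in M-noTC-LPS libraries. Levels after LPS were below those at steady state without overlap on both dishes with GM-CSF. Its response in GM-TC was -0.54 on the log2 scale (standard error 0.23, edgeR's adjusted p = 0.049) and -0.86 (0.23, adjusted p = 0.0025) in GM-noTC, both under the fold change of 2. Without GM-TC-LPS replicate 1 the value in GM-TC was -0.26 (adjusted p = 0.41), without GM-TC-LPS replicate 2 it was -0.91 (adjusted p = 0.012), and with DESeq2 it was -0.53 (adjusted p = 0.11). In M-TC it was 0.2 (95% interval -0.54 to 0.94) and in M-noTC 0.17 (-0.51 to 0.86), and neither passed. With 14 to 131 counts a library, smaller changes of Gbp8 were not detectable. When libraries were scaled by total count only, the median of all genes upon LPS challenge moved to between -0.83 and -0.53. The fall of Gbp8 in the GM-CSF cultures then passed the fold change of 2, at -1.02 and -1.37. Over 12 alternatives the value of Gbp8 in GM-noTC was -1.37 to -0.62, and its call changed in 2 of them.

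**Figure D3:**
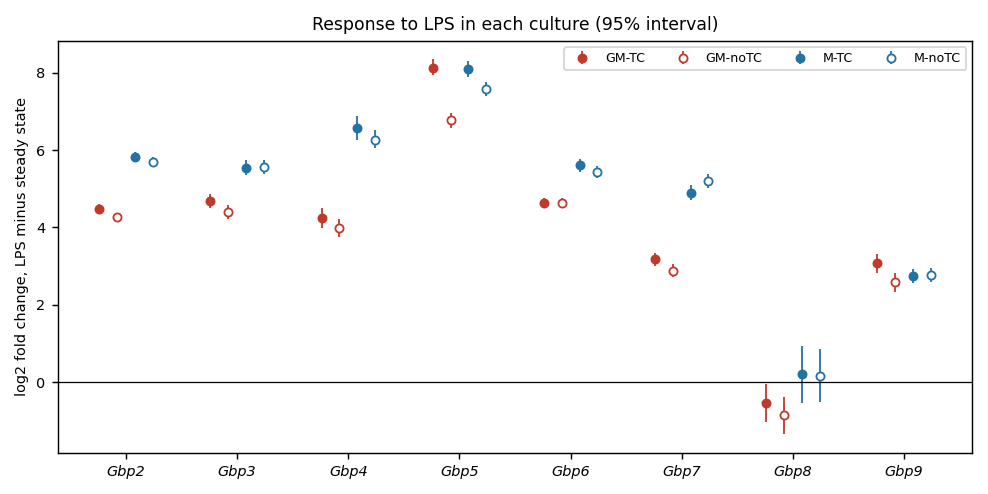
Log2 fold change of each gene upon LPS challenge in the 4 cultures, with 95% intervals from edgeR's fit, red for GM, blue for M, filled for TC and open for noTC. Gbp5 is highest in every culture, at 6.77 to 8.13, and Gbp8 lies between -0.86 and 0.2.

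Comparing GM-CSF with M-CSF cultures asks whether the level of the family differed with the growth factor. At steady state on TC dishes, 6 members were higher in GM-TC comparing with M-TC and 2, Gbp5 and Gbp9, were lower, and on noTC dishes 7 were higher and 1 lower. All 8 members passed an adjusted p under 0.05 on both dishes, where 61.5% of all genes tested passed on TC and 62.1% on noTC dishes. After LPS all 8 passed again, beside 66.8% of all genes tested on TC and 66.1% on noTC dishes, but 6 members were then lower and 2 higher in GM-CSF cultures. The growth factor comparisons before and after LPS rest on different libraries.

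Gbp8 and Gbp6 were higher in GM-CSF cultures in both states. For Gbp6 the log2 difference, GM minus M, was 1.89 (standard error 0.098, adjusted p = 1.6e-13 from edgeR) on TC and 1.49 (0.091, adjusted p = 2.4e-12) on noTC dishes at steady state. After LPS it was 0.91 (0.053, adjusted p = 1.4e-12) on TC and 0.69 (0.053, adjusted p = 1.4e-10) on noTC dishes. For Gbp8 it was 2.2 and 2.27 at steady state and 1.47 and 1.23 after LPS on TC and noTC dishes.

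Gbp9 was lower in GM-CSF cultures throughout. Its log2 difference was -2.54 (standard error 0.12) on TC and -2.46 (0.11) on noTC dishes at steady state, and -2.22 (0.083) and -2.65 (0.084) after LPS, with adjusted p of 2.8e-14 or less. These correspond to levels 4.65-fold to 6.28-fold lower with GM-CSF.

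Gbp2, Gbp3, Gbp4 and Gbp7 changed sides with LPS on both dishes, except that Gbp2 on TC dishes was at -0.03 before LPS when libraries were scaled by total count. For Gbp2 the log2 difference was 0.28 (standard error 0.062) on TC and 0.42 (0.059) on noTC dishes at steady state, and -1.05 (0.051) and -1.02 (0.051) after LPS. For Gbp7 it was 1.11 (0.091) and 1.62 (0.089) at steady state and -0.61 (0.072) and -0.7 (0.072) after LPS. For Gbp4 it was 1.73 (0.27) and 1.02 (0.2) at steady state and -0.6 (0.078) and -1.28 (0.075) after LPS. Gbp3 differed by 0.41 and 0.71 before and by -0.45 on both dishes after LPS. Gbp5 was lower in GM-TC than in M-TC, at -0.43 (standard error 0.13, adjusted p = 0.0056 from edgeR), but higher in GM-noTC than in M-noTC by 0.49 (0.097, adjusted p = 0.00015). After LPS it was lower with GM-CSF on both dishes, at -0.38 and -0.32.

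The steady state side of Gbp2 on TC dishes depends on the scaling. With total count only, which put the median of all genes at -0.29 in the steady state comparisons of GM and M, its difference turned to -0.03 (adjusted p = 0.63 from edgeR). The values for Gbp3 on TC and Gbp5 on noTC dishes, 0.1 and 0.2, no longer passed. Without 1 library of the M-TC group, replicate 2, Gbp5 on TC dishes was -0.2 (adjusted p = 0.21), and without GM-TC replicate 2 it was -0.35 (adjusted p = 0.067). Of 5 dendritic cell markers, the sum lay between 14.3 and 74.2 CPM in GM-CSF libraries and between 0.64 and 3.94 CPM in M-CSF libraries. None of the 5 was at 0 in both libraries of any group. In GM-CSF libraries Ccr7 had 8.54 to 62 CPM, and the others had at most 8.17 CPM each. The sum of 5 mast cell and basophil markers, most of it Kit, lay between 18.7 and 32.7 CPM with GM-CSF and between 3.25 and 8.22 CPM with M-CSF, with 2 to 4 of the 5 at 0 in both libraries of the M-CSF groups. The sum of 5 neutrophil markers lay between 2.52 and 10.2 CPM with GM-CSF and between 0.0998 and 1.18 CPM with M-CSF. In each M-CSF group, 3 of the 5 were at 0 in both libraries. With GM-CSF, S100a8 had 1.87 to 9.85 CPM, and the others had at most 0.856 CPM each. The part of these 3 marker lists in the differences of the GBPs was not tested.

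**Figure D4:**
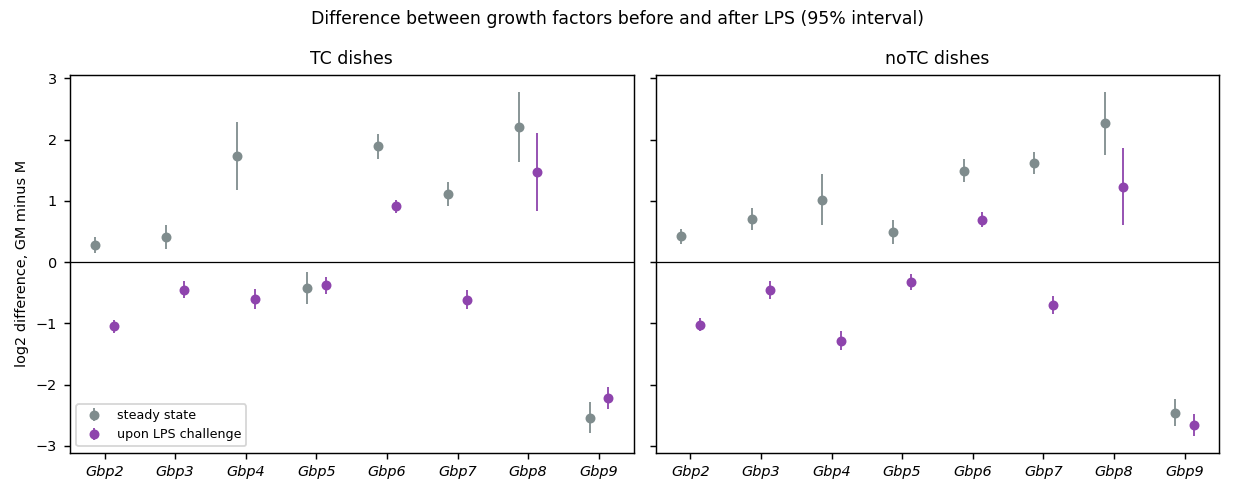
Log2 difference, GM minus M, of each gene on TC and noTC dishes, at steady state (grey) and upon LPS challenge (purple), with 95% intervals from edgeR's fit. Gbp2, Gbp3, Gbp4 and Gbp7 lie above 0 at steady state (Gbp2 on TC dishes at -0.03 when scaled by total count) and below 0 after LPS, and Gbp9 lies below -2 in all 4 comparisons.

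The test of the difference between LPS responses, an interaction term in the same fit, gave each gene's response in GM minus that in M. On TC dishes, 5 members had a smaller log2 response in GM-TC than in M-TC, where 41.1% of all genes tested passed in either direction. They were Gbp4 at -2.33 (standard error 0.27), Gbp7 at -1.72 (0.12), Gbp2 at -1.33 (0.08), Gbp6 at -0.98 (0.11) and Gbp3 at -0.86 (0.12), with adjusted p of 2.7e-06 or less from edgeR. On noTC dishes these 5 and Gbp5 passed, where 36.2% of all genes tested did, and the values ranged from -2.32 for Gbp7 to -0.8 for Gbp6. For Gbp5 the difference was -0.81 (0.12, adjusted p = 8.1e-06) on noTC but 0.04 (0.14, adjusted p = 0.85) on TC dishes, where it passed at 0.39 (adjusted p = 0.027) when libraries were scaled by total count. Gbp9 did not pass on either dish in this fit, with 0.32 (95% interval 0.01 to 0.64, adjusted p = 0.096) on TC and -0.19 (-0.49 to 0.1, adjusted p = 0.32) on noTC dishes. On TC dishes Gbp9 passed at 0.67 (adjusted p = 0.00072) with scaling by total count, at 0.34 (adjusted p = 0.031) without the filter, and at 0.49, 0.44 and 0.43 (adjusted p = 0.035, 0.026 and 0.029) without GM-TC replicate 1, GM-TC-LPS replicate 1 or M-TC-LPS replicate 2. Gbp8 did not pass in this fit, at -0.73 (95% interval -1.62 to 0.16, edgeR's adjusted p = 0.18) on TC and -1.04 (-1.88 to -0.19, adjusted p = 0.052) on noTC dishes. On noTC dishes the call of Gbp8 changed in 3 of 15 alternatives, over which its value was -1.23 to -0.8.

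The comparison of noTC with TC dishes asks whether the family differed with the dish surface, and fewer members passed. At steady state in GM-CSF cultures, Gbp5 alone passed, where 7.54% of all genes tested did. It was 2.42-fold higher on noTC dishes, a log2 difference of 1.27 (standard error 0.11, adjusted p = 1.3e-07 from edgeR). The other 7 lay between -0.25 for Gbp6 (adjusted p = 0.061) and 0.28 for Gbp9 (adjusted p = 0.3). In M-CSF cultures, where 27.2% of all genes tested passed, 3 of the 8 did. Gbp4 was higher on noTC dishes by 0.97 (standard error 0.27, adjusted p = 0.011), with 0.798 and 0.486 CPM in M-TC libraries and 1.21 and 1.28 in M-noTC libraries. Gbp5 was higher by 0.36 (0.11, adjusted p = 0.014), and Gbp7 differed by -0.36 (0.096, adjusted p = 0.0075). Each of these 3 calls was lost without 1 library or another. For Gbp4 the value was 0.64 (adjusted p = 0.19) without M-TC replicate 2 and 0.92 (adjusted p = 0.072) without M-noTC replicate 2. For Gbp5 it was 0.16 (adjusted p = 0.36) without M-TC replicate 1 and 0.24 (adjusted p = 0.18) without M-noTC replicate 1. For Gbp7 it was -0.24 (adjusted p = 0.18) without M-TC replicate 2 and -0.31 (adjusted p = 0.072) without M-noTC replicate 1.

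The steady state difference of Gbp5 was set beside a pattern seen in genes outside the family, and a link between them was not tested. Genes under 1 CPM in both TC libraries at steady state, with a mean of at least 100 CPM over the LPS groups and the noTC group of the other growth factor, were present in the noTC libraries at steady state at a nearly constant share of that average. The share was 0.675% in GM-noTC, over 15 genes of which 14 lay within 1.5-fold, and 0.6% in M-noTC, over 19 genes of which 17 did. The excess of Gbp5 in GM-noTC over GM-TC, in CPM scaled by total count, equalled 0.802% of its average of 1385 CPM in those other libraries, and in M-noTC 0.27%. For other members the excess in M-noTC was -0.0309% for Gbp2, -0.79% for Gbp3 and -2% for Gbp7. In GM-noTC it was 0.579% for Gbp2, 0.492% for Gbp3, 1.74% for Gbp7 and -1.5% for Gbp6. Gbp2, Gbp3 and Gbp7 had 51.4, 28.9 and 31.9 CPM in M-TC, scaled by total count. The share was taken from genes under 1 CPM in TC libraries, so these excess values do not test it. With these shares subtracted from the noTC libraries, the log2 difference of Gbp5 was 0.3 (adjusted p = 0.27 from edgeR) in GM and -0.65 (adjusted p = 0.001) in M. Gbp4 in M-CSF cultures still passed after the subtraction, at 0.77 (adjusted p = 0.049), and so did Gbp7, at -0.49 (adjusted p = 7e-04). The subtraction also added calls, for Gbp6 in GM from -0.25 to -0.37 (adjusted p = 0.0074) and for Gbp3 in M from -0.2 to -0.38 (adjusted p = 0.0047). Reads from other libraries and expression by the cells cannot be told apart in these counts. The heart muscle markers given above, at 18.4 CPM or more in the untreated TC libraries and at 0 in the untreated noTC ones, moved with the same contrast, and their part was not tested.

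**Figure D5:**
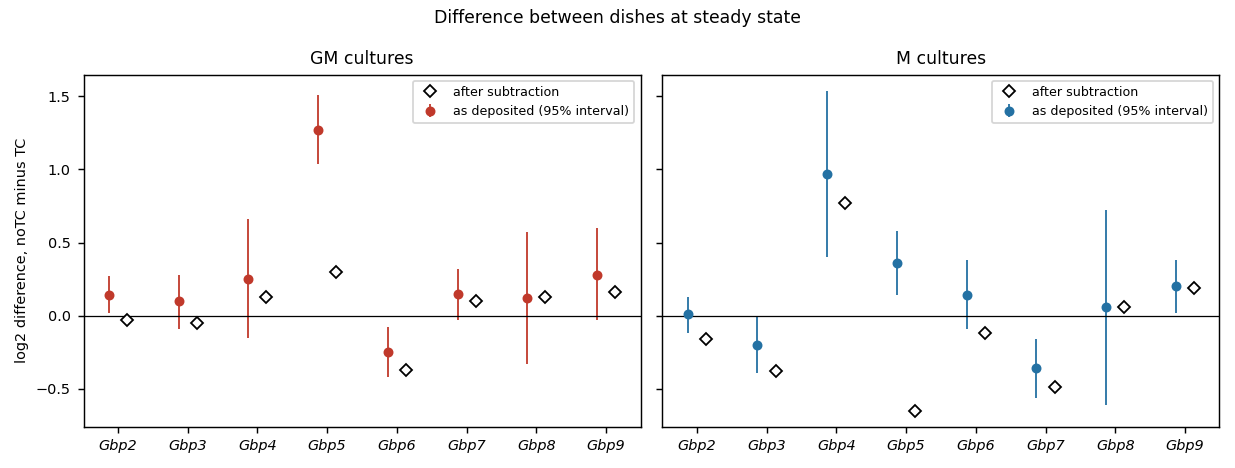
Log2 difference between noTC and TC dishes at steady state in GM and M cultures, with filled circles and 95% intervals for the counts as deposited and open diamonds after subtraction of a fixed share of the other libraries from the noTC libraries. Gbp5 moves from 1.27 to 0.3 in GM and from 0.36 to -0.65 in M cultures.

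After LPS, Gbp6 passed in GM-CSF cultures, where 2.8% of all genes tested did, with a log2 difference of -0.25 (standard error 0.052, adjusted p = 0.0077 from edgeR). That call was lost without GM-TC-LPS replicate 2 (-0.21, adjusted p = 0.16) and without either GM-noTC-LPS library (-0.25 and -0.24, adjusted p = 0.07 and 0.079). In M-CSF cultures Gbp4 and Gbp9 passed, where 23.3% of all genes tested did. Gbp4 was 1.59-fold higher in M-noTC-LPS than in M-TC-LPS, a log2 difference of 0.67 (0.073, adjusted p = 7e-07), and stayed past the threshold in every alternative that was run. Gbp9 was higher by 0.22 (0.075, adjusted p = 0.04), and lost its call without M-TC-LPS replicate 1 (0.11, adjusted p = 0.42) and without either M-noTC-LPS library (0.27 and 0.17, adjusted p = 0.06 and 0.25).

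The interaction of dish and LPS passed for Gbp5 alone in both growth factors, at -1.37 (standard error 0.13, adjusted p = 9.5e-07 from edgeR) in GM, where 0.783% of all genes tested passed, and at -0.52 (0.12, adjusted p = 0.0091) in M, where 10.6% did. Its response was smaller on noTC dishes, where it started from a higher level. After the subtraction the values were -0.39 (adjusted p = 0.54) in GM and 0.5 (adjusted p = 0.045) in M, a change of sign in M, where Gbp7 then passed too, at 0.42 (adjusted p = 0.029). In M the call was also lost without M-TC replicate 1 (-0.31, adjusted p = 0.15) and without M-noTC replicate 1 (-0.39, adjusted p = 0.095).

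The ligands and signal carriers upstream of the family were measured in the same libraries. Ifnb1, which encodes interferon beta, was at or under 0.148 CPM in all libraries at steady state. Upon LPS challenge it had 7.24 and 6.36 CPM in GM-TC-LPS libraries, 9.33 and 8.85 in GM-noTC-LPS libraries, 6.15 and 7.26 in M-TC-LPS libraries and 14.4 and 15.8 in M-noTC-LPS libraries. Ifnb1 was thus highest in M-noTC-LPS, as were Gbp4 and Gbp9, while Gbp2, Gbp3, Gbp5 and Gbp7 were highest in M-TC-LPS, Gbp6 in GM-TC-LPS and Gbp8 in GM-noTC. The log2 difference of Ifnb1 between M-noTC-LPS and M-TC-LPS was 1.17 (standard error 0.18, adjusted p = 6.3e-05 from edgeR). Ifng, which encodes interferon gamma, had no count in 15 libraries and 0.139 CPM in 1 GM-TC-LPS library, and Ifna2 and Ifna4 had at most 0.139 CPM. Among the receptor chains, Ifnar2 rose past a fold change of 2 in GM-TC and GM-noTC and Ifnar1 in GM-TC, while Ifngr1 and Ifngr2 rose past it in no culture.

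Of 13 genes of JAK, STAT and IRF signaling, 9 rose past the limits on either dish with GM-CSF, and 11 on TC and 10 on noTC dishes with M-CSF. Irf1, which binds ISREs, had 23.6 and 23 CPM in GM-TC libraries and 47.8 and 49.7 in M-TC libraries, and 535 in both GM-TC-LPS libraries and 746 and 739 in M-TC-LPS libraries. Irf7 had 3.13 and 4.91 CPM in GM-TC libraries and 68.6 and 78.8 in M-TC libraries, and 239 and 264 in GM-TC-LPS libraries and 866 and 894 in M-TC-LPS libraries. Irf1 and Irf7 were thus lower with GM-CSF both before and after LPS, unlike Gbp2, Gbp3, Gbp4 and Gbp7, which were higher with GM-CSF before it (Gbp2 on TC dishes not so when scaled by total count). On TC dishes, their log2 responses were larger in GM than in M, by 0.6 for Irf1 and 2.36 for Irf7 (adjusted p of 1.1e-06 or less), and those of 5 GBP genes smaller. Jak2 and Socs1 also had smaller log2 responses in GM than in M, with differences of -1.42 and -3.28.

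IRGs, which act with GBPs on vacuoles, were measured for 6 genes, and all 6 rose in each of the 4 cultures. Their median log2 fold change was 5.59 and 4.85 with GM-CSF and 4.25 and 4.08 with M-CSF, on TC and noTC dishes. All 6 were lower with GM-CSF on TC dishes both at steady state and after LPS. Irgm1, a regulator of the other IRGs, had 46.6 and 51.7 CPM in GM-TC libraries, 142 in both M-TC libraries, 800.4 and 841 in GM-TC-LPS libraries and 1642 and 1696 in M-TC-LPS libraries.

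Genes that act on or after the GBPs divided by kind. Of 10 genes of the ATG8 conjugation machinery, through which GBPs and IRGs are directed to vacuoles, 0 rose past the limits in GM-TC and GM-noTC and 1 in M-TC and M-noTC in edgeR's test, namely Atg16l1. At an unadjusted p under 0.05, regardless of fold, 4 were higher and 5 lower in GM-TC and 4 higher and 4 lower in GM-noTC. Log2 fold changes over the 10 genes were -0.63 to 0.38 in these cultures. In M-TC 4 were higher and 5 lower, at -0.56 to 1.17, and in M-noTC 5 were higher and 5 lower, at -0.48 to 1.02. Of 5 genes of prenylation enzymes, none rose or fell past the limits in any culture in edgeR's test. At an unadjusted p under 0.05, regardless of fold, 1 was higher in each culture and 2 or 3 were lower, with log2 fold changes of -0.74 to 0.73. The share of all genes tested that passed this unadjusted limit is not given here. The unadjusted counts of the ATG8 and prenylation lists therefore do not set these genes apart from others. Of 9 genes of cell death and inflammasome sensing, 6 rose on either dish with GM-CSF and 7 with M-CSF. Pycard, which encodes the inflammasome adaptor ASC, fell past the limits in GM-TC, at -1.01 (adjusted p = 2.2e-11), and was at -0.99 on noTC dishes with GM-CSF and at 0.08 and -0.07 on TC and noTC dishes with M-CSF. Casp4 had 10.5 and 11.6 CPM in GM-TC libraries, 20.3 and 18.8 in M-TC libraries, 134 and 144 in GM-TC-LPS libraries and 248 and 247 in M-TC-LPS libraries. Gsdmd, which encodes gasdermin D, had 33.4 and 35.5 CPM in GM-TC libraries, 51.9 and 48.9 in M-TC libraries, 64 and 61.9 in GM-TC-LPS libraries and 146 and 148 in M-TC-LPS libraries.

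Across all 16 libraries, the profile of the mean log2 CPM of the 8 members was most like those of Ccl4 and Csnk1a1 (Pearson's r = 0.998), Zcchc2, Plcl2 and Cpeb4 (r = 0.997). Among members, r with this mean was 0.973 to 0.998 for 6 genes, 0.731 for Gbp9 and -0.099 for Gbp8. Each member is itself part of the mean, which raises its r, here and in the LPS libraries below. The r of members is therefore not comparable with that of the other genes. These 16 points share the split between LPS and steady state. Over the 8 LPS libraries alone, the most alike were AW549877 (r = 0.991), Slc37a3 and Ddx60 (0.99) and Pcdhgb6 and Asap3 (0.988). There Gbp6 and Gbp8 ran against the mean, with r of -0.873 and -0.844, while Gbp2, Gbp3, Gbp4, Gbp5, Gbp7 and Gbp9 lay between 0.904 and 0.979. These points share the split between GM-CSF and M-CSF.

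Reads of near-identical genes could limit the assignment for some members. Of all stretches of 50 bases in the Gbp6 transcript with the longest coding sequence, 90.2% occur also in another gene. By gene it was 90.2% in Gm43302 and 62.3% in Gbp10. For each member, only the stretches of 1 such transcript were searched, not all exons. The counts of Gbp6 were not whole in 11 of 16 libraries. Gm43302 held at most 1.6 CPM and Gbp10 at most 1.05 CPM in any library. The same share was 21.2% for Gbp8, 12.8% for Gbp4 and Gbp7, 9.56% for Gbp9 and 4.79% or less for Gbp2, Gbp3 and Gbp5. Gbp4, Gbp8 and Gbp9 overlap each other on the same strand in the annotation, so their values are uncertain to the extent that reads of 1 were counted for another. Of the other family genes, Gbp11 rose past the limits in all 4 cultures, Gbp2b in GM-TC, M-TC and M-noTC and Gbp10 in GM-noTC and M-noTC. None of them passed 7.48 CPM in any library. The call of Gbp10 in GM-noTC rests on 1 library, with 0.616 and 0 CPM in the GM-noTC-LPS libraries.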

How the data were processed

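RNA-seq was performed on 16 libraries of BMDMs, 2 in each of 8 groups. The deposited values are expected counts per gene from RSEM, made by the authors after alignment with HISAT2. The submitters' processing notes also name fastp 0.18.0, Bowtie2 2.2.8, StringTie 1.3.1, DESeq2 and edgeR. The genome build of the counts and the strand setting are not given in the sources used here. Between 6.56% and 8.19% of genes per library had counts that were not whole, and all values were rounded. Libraries held 17527806 to 31458368 counts. The standard errors from edgeR's fit cover counting error and the spread between these libraries, which may leave out that between mice.

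Genes were filtered with edgeR's filterByExpr, which kept 12514, and tested in R 4.3.3 with edgeR 4.0.16 (TMM scaling, quasi-likelihood F-test, 1 coefficient per group over all 16 libraries), with p-values adjusted by Benjamini and Hochberg over all genes tested. LPS responses were called at an adjusted p under 0.05 and a fold change above 2, and all other comparisons at an adjusted p under 0.05. Correlations used log2 CPM with a prior count of 2. An exact permutation test of 2 against 2 libraries cannot go below p = 0.333. The scripts were tested on simulated data.

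Every member was named, with other genes named from fixed lists (interferon ligands and receptors, JAK, STAT and IRF signaling, IRGs, ATG8 conjugation, prenylation, cell death, other Gbp genes) and the 5 genes of at least 1 CPM most like the members' mean profile. A gene of the signaling list is not reported here. The members and the lists were chosen with earlier results of these data known. Alternatives were DESeq2 1.42.0, its size factors, scaling by total count, no filter, the libraries of each comparison alone, a replicate block, subtraction of a share of other libraries, and leaving out each library. Same-numbered replicates did not deviate together (correlations of -0.141 to 0.072), so they were not treated as pairs. Lengths, shared sequence and coding ends came from GENCODE M21, and promoter windows from RefSeq.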

Additional observations from a re-analysis of the deposited data

Results flagged for a closer look

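The LPS response differed between growth factors by an interaction test in edgeR's fit for 5 members on TC dishes and 6 on noTC dishes. Each had a smaller log2 response in GM than in M cultures. Over all genes tested, 41.1% passed on TC and 36.2% on noTC dishes, in either direction. On TC dishes the difference was -1.33 for Gbp2, -0.86 for Gbp3, -2.33 for Gbp4, -0.98 for Gbp6 and -1.72 for Gbp7. On noTC dishes it was -1.44 for Gbp2, -1.16 for Gbp3, -2.3 for Gbp4, -0.81 for Gbp5, -0.8 for Gbp6 and -2.32 for Gbp7. Scaling by total count moved the median of all genes in these 2 tests to 0.3 and 0.19.

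The LPS response of Gbp5 differed between dishes, with -1.37 in GM and -0.52 in M cultures for noTC minus TC. With 0.675% (GM) and 0.6% (M) of the mean of other libraries subtracted from the noTC libraries at steady state, the values were -0.39 and 0.5. Reads of other libraries and expression by the cells cannot be told apart in these counts.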

How the results depend on the processing

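The number of members that passed in the LPS and growth factor comparisons stayed within 1.5 times under each alternative run. With scaling by total count, 2 members passed the dish by LPS interaction in M, and the growth factor difference of Gbp2 on TC dishes at steady state turned to -0.03. Without a filter on low counts, 5 members passed the dish comparison in M at steady state, 2 that in GM after LPS, 4 that in M after LPS, and 2 the interaction in M. With the libraries of the comparison alone, 3 passed the dish comparison in GM after LPS and 4 that in M after LPS. With the share of other libraries subtracted, 0 passed the interaction in GM and 2 that in M, where Gbp5 turned to 0.5, and its dish difference in M at steady state turned to -0.65. By the longest coding length Gbp2 had the highest level per kb in 2 groups. The cause of these changes was not tested, apart from the length and the subtraction, which act by construction. The share of all genes that passed under each alternative is not given here, so the counts of members stand without it.

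Leaving out 1 library at a time gave 1 to 2 members for the dish by LPS interaction in GM (2 without GM-TC replicate 1) and 0 to 2 in M (0 without replicate 1 of M-TC or M-noTC, 2 without M-TC-LPS replicate 2). For the dish comparisons it gave 1 to 3 in M at steady state (1 without M-TC replicate 2 or M-noTC replicate 1), 0 to 1 in GM after LPS and 1 to 2 in M after LPS. With a replicate block, which the pairing check gave no ground for, 127 of 128 member values kept their direction and call, and Gbp3 passed the dish comparison in M after LPS at -0.18 (adjusted p = 0.022). With DESeq2, Gbp9 lost its call there (0.2, adjusted p = 0.089). Depth limits Gbp8 and, at steady state, Gbp4.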
